A study of Mus musculus with 36 samples.

Results

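Il4, Il13, Ccr3 and Prg2 are 4 mouse genes of type 2 immunity and of the eosinophil, taken here by name from the 988 genes of a targeted RNA sequencing panel and followed through every analysed library of a study on mast cells in colon tumours. The panel (QIAseq Targeted RNA, Mouse Immuno-Oncology, sequenced with a MiSeq according to the labels) amplifies a short stretch of each chosen transcript, and the deposited tables hold raw counts for each gene. Of 36 samples in 9 groups, 34 libraries were analysed, and 1 MC-38 sample of each genotype (sash replicate 3 and wild-type replicate 2) was not analysed here.

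Sash mice are C57BL/6 mice with the Kit W-sash mutation (C57BL/6 cKitw-sh in the labels), which lack most mast cells, and the mutation also affects other cells that depend on Kit, such as pigment cells. Colon tumours came from sash (n = 5) and wild-type C57BL/6 mice (n = 5) at 32 weeks of age, 18 weeks after the last of 6 weekly intraperitoneal doses of 10 mg/kg azoxymethane (AOM), a colon carcinogen. Colon samples with preneoplastic lesions came from sash (n = 3) and wild-type mice (n = 3) at 14 weeks of age, after 3 AOM injections over 3 weeks and 3 more weeks. In the drug experiment, wild-type mice of 14 weeks received cromolyn, a mast cell stabiliser, together with AOM (n = 3) or for 3 weeks after it (n = 3), and a further group carries the label of AOM alone (n = 3). All of these colon groups received AOM, so the AOM table holds no colon without carcinogen. Tumours of MC-38, a single C57BL/6 colon carcinoma line, came from sash (n = 5) and wild-type hosts (n = 4) that are labelled as given saline, with no age in the labels. Nothing in the labels ties each library to its own animal, so every p-value here reflects sample-to-sample spread that may be technical.

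Interleukin-4 and interleukin-13 are the cytokines of type 2 immunity. Both signal through the interleukin-4 receptor alpha chain and STAT6, and in the gut they act on epithelium, goblet cells and macrophages. T helper 2 cells, innate lymphoid cells, mast cells, basophils and eosinophils can make them. Ccr3 encodes the receptor for eotaxins, which guides eosinophils into tissue and is also found on other cells such as some mast cells and basophils. Prg2 encodes major basic protein, a toxic cationic protein of the eosinophil granule, transcribed mainly while eosinophils mature.

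The promoters of 3 of the 4 genes are shown. Il4 and Il13 lie next to each other on chromosome 11, between Kif3a and Rad50 in the RefSeq annotation. In the MC-38 tumours below, the levels of Il4 and Ccr3 varied closely together from library to library, and those of Il13 less so. The stretches are the 250 bases before the annotated start, 5′ to 3′ on the gene's strand, from RefSeq (GRCm38.p6), which is not the build of the deposited counts. Capitals mark GGAAA on either strand (TTTCC on the other), the core letters bound by NFAT and other factors.
Il4 promoter, chr11:53618666-53618915, minus strand: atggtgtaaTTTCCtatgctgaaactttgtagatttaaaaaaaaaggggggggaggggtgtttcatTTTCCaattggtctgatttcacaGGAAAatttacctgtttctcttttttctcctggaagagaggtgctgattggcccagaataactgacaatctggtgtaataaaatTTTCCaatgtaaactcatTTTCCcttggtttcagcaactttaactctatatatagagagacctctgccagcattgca
Il13 promoter, chr11:53634703-53634952, minus strand: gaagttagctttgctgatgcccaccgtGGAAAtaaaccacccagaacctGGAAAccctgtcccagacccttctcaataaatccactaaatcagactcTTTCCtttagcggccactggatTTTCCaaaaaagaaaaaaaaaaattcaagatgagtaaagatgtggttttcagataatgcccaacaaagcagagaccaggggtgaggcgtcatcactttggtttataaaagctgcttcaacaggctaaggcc
Ccr3 promoter, chr9:124021721-124021970, plus strand: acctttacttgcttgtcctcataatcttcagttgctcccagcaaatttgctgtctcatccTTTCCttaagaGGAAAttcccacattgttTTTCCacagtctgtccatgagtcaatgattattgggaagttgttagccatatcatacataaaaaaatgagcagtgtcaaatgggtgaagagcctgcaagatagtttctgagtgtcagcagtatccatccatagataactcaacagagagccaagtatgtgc

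GGAAA was found 5 times in the Il4 stretch, 4 times in the Il13 stretch and 3 times in the Ccr3 stretch. At least 1 match is common, since 55.6% of the 32851 promoter stretches of this length in the table hold one. At least 5 matches were found in 0.390% of them, 4 or more in 1.59% and 3 or more in 6.39%. A further annotated Il4 start, downstream of the one shown, has 0 matches before it. GATAA, the core letters bound by GATA factors (TTATC on the other strand), occurs 0 times in the Il4 stretch shown and 1 time each in those of Il13 and Ccr3, against 22.6% of all stretches. Prg2 lies on chromosome 2 beside Slc43a3 and Prg3. These matches describe letters only and say nothing of binding.

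Library totals ran from 1051059 to 1264354 counts in sash tumours and 617698 to 1151533 in wild-type tumours, 621846 to 816883 in sash lesions and 616745 to 1149069 in wild-type lesions. They were 449880 to 497810 for cromolyn with AOM, 479743 to 514208 for cromolyn after AOM and 470661 to 544886 for AOM only, and in MC-38 tumours 480136 to 889888 in sash and 633693 to 986415 in wild-type hosts. Levels below are CPM (a gene's count scaled to a common library size after TMM adjustment within a table), and the AOM and MC-38 tables were scaled separately. Earlier results of these data showed wild-type tumours 2 and 4 apart from the other wild-type tumours, so results that use them are also given without them. Epcam, an epithelial marker, had 0 to 3 counts in MC-38 libraries and at least 4359 in every library of the AOM table. Cpa3, a mast cell protease, had 0 counts in all sash lesions against 31 counts in wild-type lesions, and 15 against 1574 counts in the MC-38 tumours.

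All 4 genes were low. Il4 never exceeded 10 counts and Il13 never exceeded 22 counts in an AOM library, and in MC-38 libraries the highest counts were 58 for Il4, 33 for Il13, 91 for Ccr3 and 176 for Prg2. In the AOM table the group means of Prg2 ran, from high to low, 75.9 ± 8.6 CPM for cromolyn with AOM, 55.3 ± 11.7 in wild-type lesions, 53.4 ± 6.5 for AOM only, 45.8 ± 10.4 for cromolyn after AOM, 29.6 ± 19.7 in sash tumours, 24.5 ± 2.9 in sash lesions and 14.7 ± 12.7 in wild-type tumours (SD, n = 3, or 5 for tumours). The libraries of cromolyn with AOM all lay above those of wild-type lesions, and the ranges of every other pair of neighbours in that order overlapped.

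Ccr3 had group means from 20.6 ± 18.6 CPM for cromolyn after AOM to 2.38 ± 1.58 in sash lesions, and Il4 from 9.25 ± 11.41 for cromolyn with AOM to 1.62 ± 1.26 in wild-type tumours. The ranges of all neighbours in the order of means overlapped for both genes. Il13 averaged 26.0 ± 2.9 CPM for cromolyn after AOM, 22.3 ± 22.7 for cromolyn with AOM, 10.1 ± 10.0 in wild-type lesions, 9.85 ± 5.92 in sash lesions, 1.93 ± 1.88 for AOM only and 0.66 ± 1.08 in sash tumours, with 0 counts in all 5 wild-type tumours. A count of 0 in the 4517331 counts of those tumours allows a level of up to 0.664 CPM of the library totals (3 counts, counting error only).

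**Figure D1:**
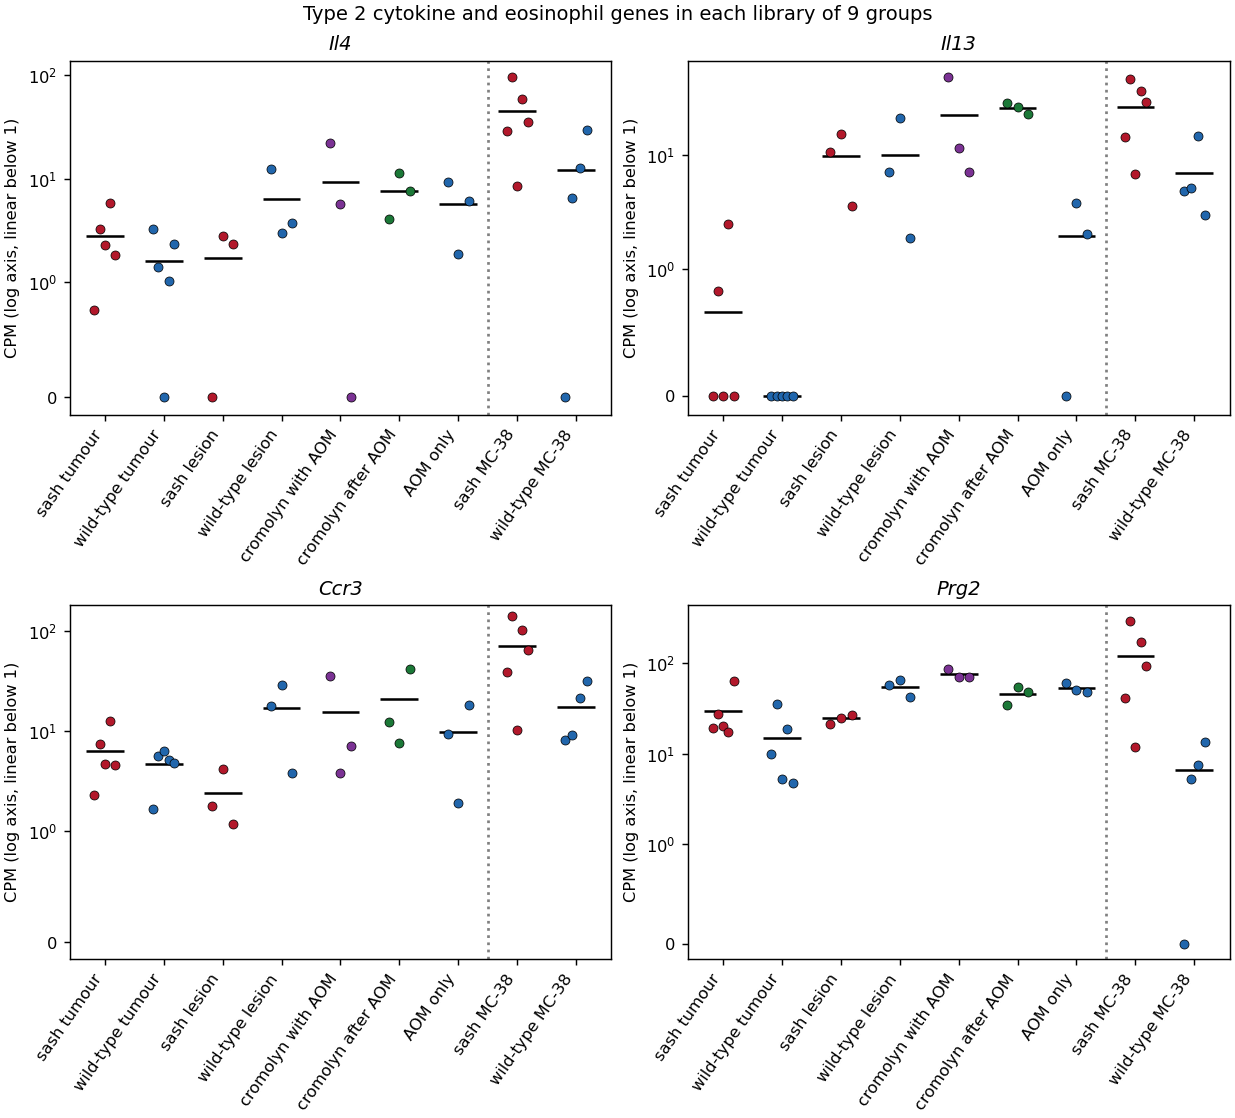
CPM of Il4, Il13, Ccr3 and Prg2 in each library (points) with the group mean (line), on an axis that is logarithmic above 1 CPM and linear below it; the dotted line separates the AOM table from the MC-38 table. In sash MC-38 tumours Prg2 reached 292 CPM, and in wild-type tumours Il13 was at 0 in all 5 libraries.

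In MC-38 tumours all 4 genes stood higher in sash hosts by pooled counts, from 3.77-fold for Il13 to 20.1-fold for Prg2, but none passed the test across all genes. In these bulk samples, fewer cells of a type and less RNA per cell cannot be told apart. The comparison asks how the host's Kit W-sash mutation changes the tumour's immune transcripts. Prg2, the granule protein gene, was at 41.0, 292, 11.9, 173 and 93.7 CPM in sash replicates 1, 2, 4, 5 and 6, against 0, 5.18, 7.39 and 13.4 CPM in wild-type replicates 1, 3, 4 and 5. Sash replicates 1, 2, 5 and 6 exceeded the wild-type maximum, and sash replicate 4 lay below wild-type replicate 5. The log2 difference was 4.18 (SE 0.98, edgeR adjusted p = 0.0691). Pooled counts were 417 against 20, a ratio of 20.1 (95% interval 12.8 to 33.2, counting error only, as for all such intervals).

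Ccr3, the eotaxin receptor, was at 39.0, 141, 10.2, 101 and 64.6 CPM in the same sash libraries, against 8.11, 9.06, 21.1 and 31.3 CPM in wild-type libraries. All sash libraries but replicate 4 exceeded the wild-type maximum. The log2 difference was 2.02 (SE 0.64, adjusted p = 0.128), and the pooled ratio was 4.38 (3.24 to 6.02) from 241 against 53 counts. Il4 was at 28.7, 96.3, 8.49, 58.7 and 35.5 CPM in sash libraries, against 0, 6.47, 12.7 and 29.9 CPM in wild-type libraries. Sash replicates 2, 5 and 6 exceeded the wild-type maximum of Il4, with a log2 difference of 1.88 (SE 0.75, adjusted p = 0.179) and a pooled ratio of 3.96 (2.75 to 5.84). Il13 was at 14.4, 46.5, 6.79, 36.6 and 29.1 CPM in sash libraries, against 4.86, 5.18, 14.8 and 2.99 CPM in wild-type libraries. The same 3 sash replicates, 2, 5 and 6, exceeded the wild-type maximum. Il13 was too low for the filter on low counts, and its pooled ratio was 3.77 (2.36 to 6.25). In the fit without that filter its log2 difference was 1.86 (SE 0.57, adjusted p = 0.118).

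The number called was 0 of the 3 members tested, beside 9 of 714 genes overall (1.26%). Groups that did not overlap in CPM were found for 0 of the 4 members, beside 7.69% of the genes with a count. Prg2 passed the filter through the sash libraries, since no wild-type library reached 10 counts. DESeq2 gave Prg2 an adjusted p of 0.00202 and Ccr3 one of 0.0261. With edgeR, leaving out 1 library gave adjusted p = 0.0184 to 0.282 for Prg2 and 0.0267 to 0.356 for Ccr3, both lowest without sash replicate 4. The Prg2 range holds no fit without sash replicate 1, 2, 5 or 6, since Prg2 then failed the filter. It therefore cannot show how far the Prg2 result depended on those libraries. The fit with the replicate number as a block kept only replicates 1, 4 and 5, the numbers that both groups have. It left out wild-type replicate 3 and sash replicates 2 and 6, which lay above the wild-type maximum of Ccr3 and Il4. Its log2 difference was 1.07 for Ccr3 (adjusted p = 0.534) and 1.10 for Il4 (adjusted p = 0.601). The effect of the block cannot be told apart from that of the lost libraries. The pooled ratio of Il4 was 6.73 (4.07 to 11.9) without wild-type replicate 5, and that of Il13 was 6.52 (3.29 to 14.7) without wild-type replicate 4.

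The 5 sash libraries fell in the same order for all 4 genes, with replicate 2 highest, then 5, 6, 1 and 4. The same order was found in 74 of the 897 genes with a count in these libraries (8.25%), among them Ccl11, which encodes the eotaxin ligand of CCR3, and Csf2rb, the shared beta chain of the receptors for interleukin-5 and related cytokines. In wild-type hosts Il4, Ccr3 and Prg2 shared the order 5, 4, 3 and 1, as did 8.24% of genes with a count, while Il13 was highest in replicate 4. Ccl11 was at 285, 858, 119, 614 and 336 CPM in sash replicates 1, 2, 4, 5 and 6, against 43.8, 136, 279 and 340 CPM in wild-type replicates, and it was not called (log2 difference 1.14, SE 0.67, adjusted p = 0.338). Of the other chemokines that can bind CCR3, Ccl5 differed by 0.68 (SE 0.31, adjusted p = 0.230) and Ccl7 by 0.0049 (SE 0.15, adjusted p = 0.989).

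None of the other eosinophil and type 2 genes was called, and their differences had either sign. Siglecf, a sialic acid-binding receptor of mouse eosinophils, had 3, 12, 4, 25 and 6 counts in sash libraries, against 2, 1, 4 and 4 counts in wild-type libraries. The CPM of the groups did not overlap, and the fit without the filter gave 1.95 (SE 0.59, adjusted p = 0.115). Il5ra, the interleukin-5 receptor chain, had 12 counts in the sash libraries and 0 in the wild-type libraries. With a floor of 3 counts set for the wild-type group it was 3.85-fold higher, which leaves out the counting error of the 12. Il13ra2, which encodes a receptor that binds interleukin-13 with high affinity, had 52 against 9 counts, a ratio of 5.57 (2.72 to 12.9). Clec10a, a lectin of macrophages and dendritic cells, differed by 1.98 (SE 0.45, adjusted p = 0.0508) and Maf, a transcription factor of T cells and macrophages, by 1.22 (SE 0.32, adjusted p = 0.0891).

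Ccl2 was lower in all 5 sash libraries than in any wild-type library (−0.49, SE 0.16, adjusted p = 0.137), and Il2rg, the shared gamma chain of the interleukin-4 receptor and others, differed by −0.24 (SE 0.12, adjusted p = 0.269). Adgre1 (F4/80), the third panel gene of the eosinophil list and one that macrophages also express, differed by −0.18 (SE 0.14, adjusted p = 0.452). The 3 eosinophil genes Adgre1, Siglecf and Il5ra summed to 367 to 451 CPM in sash against 379 to 507 CPM in wild-type hosts, a sum made up mostly of Adgre1. Of 78 further names on the type 2 and eosinophil lists, 31 are on the panel and 22 were tested in MC-38 tumours. Of these 14 had a difference above 0 and none was called, with a median log2 difference of 0.26 against −0.01 for all genes.

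The summed markers of other cells in the same tumours were as follows, and their part in the result was not tested. The T cell list (8 of 9 names on the panel) summed to 1905 to 3358 CPM in sash and 1796 to 2884 CPM in wild-type hosts, with sash replicates 2 and 5 highest at 3358 and 3025. The macrophage list (6 of 8 names) summed to 2811 to 3945 CPM in sash and 2643 to 3518 CPM in wild-type hosts, again with sash replicates 2 and 5 highest. The mast cell list (7 of 11 names) summed to 392 to 884 CPM in sash and 1101 to 1802 CPM in wild-type hosts. Ms4a2, a chain of the IgE receptor of mast cells and basophils, had 2 counts in sash against 7 counts in wild-type hosts. The B cell list (5 of 6 names) summed to 35.7 to 105 CPM in sash and 27.2 to 43.3 CPM in wild-type hosts, with Cd79a at 0 in every library.

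**Figure D2:**
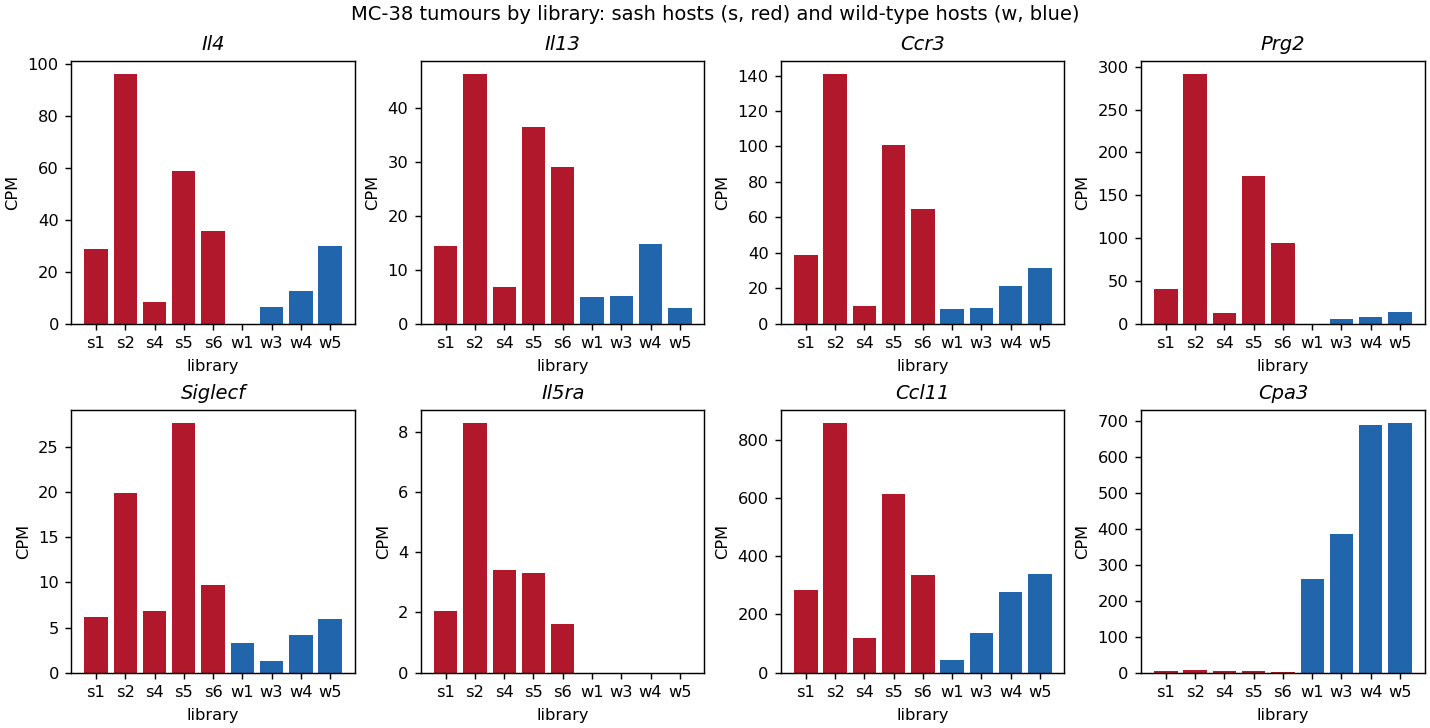
CPM in each MC-38 library (bars; s for sash hosts, w for wild-type hosts, with the replicate number) of the 4 genes and of Siglecf, Il5ra, Ccl11 and Cpa3, each on its own axis from 0. Sash replicates 2 and 5 were highest for Il4, Il13, Ccr3, Prg2 and Ccl11, while Cpa3 had 15 counts in sash against 1574 in wild-type hosts.

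In preneoplastic lesions Prg2 was 2.08-fold and Ccr3 6.02-fold lower in sash mice by pooled counts, with no call, while Il13 had 20 counts in either genotype. Prg2 was at 21.5, 25 and 27.1 CPM in sash lesions, against 58.4, 65.1 and 42.4 CPM in wild-type lesions. The groups did not overlap, the log2 difference was −1.18 (SE 0.38, adjusted p = 0.134), and the pooled interval was 1.496 to 2.93. With the replicate number as a block the difference was −1.15 (SE 0.40, adjusted p = 0.0957). Ccr3 had 1, 3 and 1 counts in sash lesions, against 10, 19 and 4 counts in wild-type lesions. In CPM, 2 of 3 sash lesions lay below every wild-type lesion, and the pooled ratio had an interval of 2.34 to 19.8. The fold was 3.57 without wild-type lesion 2, 9.89 without wild-type lesion 3 and 9.60 without sash lesion 2.

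Il4 had 0, 2 and 2 counts in sash lesions, against 7, 2 and 4 counts in wild-type lesions, and did not overlap in CPM (0 to 2.78 against 3.03 to 12.4). The pooled ratio was 2.97-fold lower, with an interval of 0.916 to 12.5 that includes no difference. The fold was 1.82 (0.433 to 8.79) without wild-type lesion 1, 3.51 (1.04 to 15.1) without wild-type lesion 2 and 3.84 (1.07 to 17.1) without wild-type lesion 3. Il13 was at 10.7, 15.3 and 3.54 CPM in sash lesions, against 7.07, 21.2 and 1.88 CPM in wild-type lesions, and the groups overlapped. The ratio of 1.10 (0.560 to 2.15) became 2.61 (1.01 to 7.95) without wild-type lesion 2, which held 14 of the 20 wild-type counts, and 0.651 (0.327 to 1.31) without wild-type lesion 3.

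Prg2 passed the filter on low counts, and the other members did not. It was not called, beside 22 of 775 genes overall (2.84%). Non-overlapping groups were found for 2 of the 4 members, Il4 and Prg2, beside 23% of genes with a count. In the fit without the filter Ccr3 differed by −2.71 (SE 0.88, adjusted p = 0.126) and Il4 by −1.62 (SE 0.94, adjusted p = 0.430).

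Siglecf was at 25.1, 16.7 and 11.8 CPM in sash lesions, against 42.4, 63.6 and 26.4 CPM in wild-type lesions, and differed by −1.34 (SE 0.49, adjusted p = 0.175). Il5ra had 3, 1 and 0 counts in sash lesions, against 15, 8 and 7 counts in wild-type lesions, 6.84-fold lower by pooled counts (2.41 to 26.7). Neither gene's groups overlapped. Adgre1, the other eosinophil list gene, differed by 0.14 (SE 0.43, adjusted p = 0.893), so 1 of the 2 tested genes of that list was above 0. Of the 22 tested type 2 and eosinophil list genes, 11 had a difference above 0 and none was called, with a median of −0.05 against 0.05 for all genes. The smallest p-values among them were those of Ccl2, a monocyte chemokine (1.35, SE 0.35, adjusted p = 0.0790), and Irf4, a transcription factor of activated T cells and plasma cells (−1.19, SE 0.42, adjusted p = 0.169).

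B cell markers were lower in the same lesions, with 3 of 4 tested genes called lower, while of 8 tested T cell genes none was above 0 and none was called. The B cell list (5 of 6 names on the panel) summed to 35.4 to 183 CPM in sash and 540 to 2113 CPM in wild-type lesions, and the T cell list to 442 to 616 CPM in sash and 620 to 1347 CPM in wild-type lesions. Neither pair of ranges overlapped. Of the mast cell list, Cpa3, Tpsab1 and Ms4a2 were at 0 in every sash lesion. The part of these cells in the result was not tested.

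**Figure D3:**
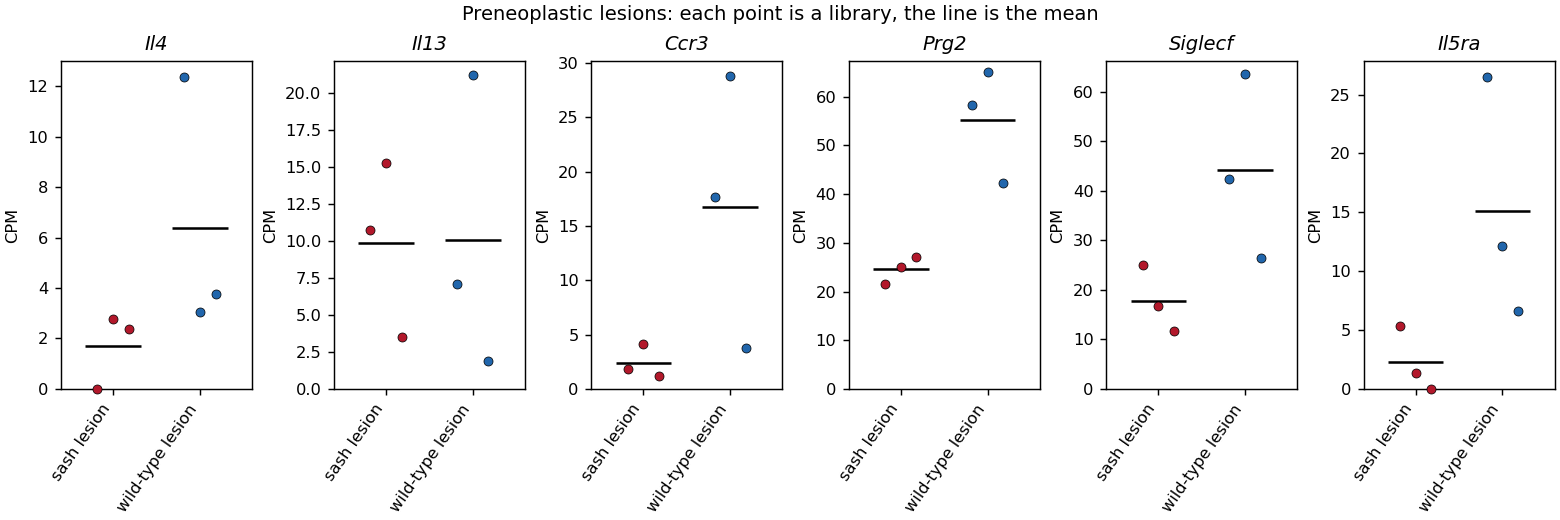
CPM of the 4 genes, Siglecf and Il5ra in each lesion library (points) with the group mean (line), sash left and wild type right, each on its own axis from 0. Prg2, Il4, Siglecf and Il5ra do not overlap between the groups, while Il13 does.

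In AOM tumours Prg2 was 2.14-fold higher in sash mice by pooled counts and was not called. It was at 19.1, 27.3, 20.01, 17.4 and 64.1 CPM in sash tumours 1 to 5, against 9.86, 35.2, 5.25, 18.6 and 4.73 CPM in the wild-type ones. The groups overlapped, since wild-type tumour 2 lay above 4 of the sash tumours. The log2 difference was 0.99 (SE 0.61, adjusted p = 0.385), and the pooled interval was 1.60 to 2.89. The pooled ratio was 1.57 without sash tumour 5 and 3.03 without wild-type tumour 2. Without wild-type tumours 2 and 4 the log2 difference was 2.11 (SE 0.59, adjusted p = 0.115) and the pooled ratio 4.14 (2.62 to 6.85). Those were the wild-type tumours with the highest Prg2, so leaving them out was bound to widen the difference.

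Ccr3 was at 2.29, 7.45, 4.62, 12.5 and 4.58 CPM in sash tumours, against 1.64, 5.64, 6.30, 5.17 and 4.73 CPM in the wild-type ones, and the pooled ratio was 1.41 (0.809 to 2.54). Il4 had 1, 4, 3, 7 and 2 counts in sash tumours, against 4, 1, 0, 1 and 2 counts in wild-type tumours, a ratio of 1.66 (0.679 to 4.45). Both intervals include no difference, and for both genes the groups overlapped. Without wild-type tumours 2 and 4 the ratios were 1.57 for Ccr3 (0.804 to 3.30) and 1.41 for Il4 (0.529 to 4.36). Il13 was read 4 times in sash tumours, 3 of them in tumour 4, and 0 times in wild-type tumours.

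Only Prg2 passed the filter, and it was not called, beside 0 of 797 genes by edgeR (0%), of which 159 had an unadjusted p below 0.05. DESeq2 called 81 genes, and Prg2 was not among them (adjusted p = 0.342). Non-overlapping groups were found for 0 of the 4 members and for 5.22% of genes with a count. Of 23 tested list genes 15 had a difference above 0, with a median of 0.31 against −0.04 for all genes, and none was called. Il33, an alarmin that starts type 2 responses (1.30, adjusted p = 0.0740), and Csf2, a growth factor of granulocytes and macrophages (2.40, adjusted p = 0.0740), had the smallest p-values. For both, all 5 sash tumours lay above every wild-type tumour. Siglecf had 29 counts in sash against 35 counts in wild-type tumours. The macrophage list summed to 2974 to 4093 CPM in sash and 1453 to 3635 CPM in wild-type tumours, the T cell list to 346 to 501 CPM in sash and 201 to 706 CPM in wild-type tumours, and the B cell list to 11.4 to 39.9 CPM in sash and 14.7 to 486 CPM in wild-type tumours, all with overlap. The neutrophil list (4 of 8 names on the panel) summed to 367 to 735 CPM in sash and 62.0 to 257 CPM in wild-type tumours, and the mast cell list to 96.0 to 210 CPM in sash and 254 to 615 CPM in wild-type tumours, both without overlap. Their part in the Prg2 values was not tested.

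Between stages, Il13 was at least 12.2-fold lower in wild-type tumours and 12.8-fold lower in sash tumours than in lesions by pooled counts, while Prg2 and Ccr3 fell in wild-type tumours. Tumours and lesions differ also in age, number of AOM doses and time since AOM, which cannot be told apart here. Prg2 was lower in wild-type tumours than in wild-type lesions (log2 difference −1.96, SE 0.58, adjusted p = 0.0179), at 4.73 to 35.2 CPM against 42.4 to 65.1 CPM. The ranges did not overlap. Ccr3 differed by −1.83 (SE 0.64, adjusted p = 0.0353), at 1.64 to 6.30 CPM in wild-type tumours against 17.7, 28.8 and 3.77 CPM in wild-type lesions. Wild-type lesion 3 lay within the tumour range, and without wild-type lesion 2 the Ccr3 difference was −1.12 (adjusted p = 0.259). Both tested members were thus called, beside 37% of 848 genes. Ccr3 passed the filter through wild-type lesions 1 and 2 and sash tumour 4 (10, 19 and 15 counts). No wild-type tumour had more than 6 counts of Ccr3, so its passing carries no weight of its own. Without wild-type tumours 2 and 4 the differences were −3.04 for Prg2 (SE 0.56, adjusted p = 0.000563) and −1.97 for Ccr3 (SE 0.78, adjusted p = 0.0485). Tumours 2 and 4 had the highest Prg2 of the wild-type tumours, so the wider Prg2 fall was bound to follow. The Prg2 call was lost with the replicate number as a block (−2.12, adjusted p = 0.0524), a fit that also left out wild-type tumours 4 and 5. It was lost too without wild-type lesion 1 (−1.88) and without wild-type lesion 2 (−1.79). The Ccr3 call was also lost without wild-type lesion 1 and without wild-type tumour 1 or 5. In the same comparison 4 of 4 tested B cell genes and 4 of 8 T cell genes were called lower, and 3 of 3 neutrophil genes were called higher. In the genotype comparisons within a stage, no neutrophil gene passed the filter in lesions and 1 B cell gene passed it in tumours. The B cell and neutrophil genes thus passed here mostly through the stage where they were high, and their counts of calls carry little weight. The part of these cells in the Prg2 and Ccr3 results was not tested.

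In sash mice Prg2 was at 17.4 to 64.1 CPM in tumours and 21.5 to 27.1 CPM in lesions, a log2 difference of 0.26 (SE 0.60, adjusted p = 0.741). Ccr3 was at 2.29 to 12.5 CPM in sash tumours and 1.18 to 4.17 CPM in sash lesions (1.35, SE 0.80, adjusted p = 0.167). Neither was called, beside 47.5% of 848 genes. The genotype difference in tumours minus that in lesions was 3.18 for Ccr3 (SE 1.02, adjusted p = 0.181) and 2.22 for Prg2 (SE 0.85, adjusted p = 0.272). Neither passed, beside 0 of 848 genes by edgeR (0%), of which 128 had an unadjusted p below 0.05, and 19 genes by DESeq2. Without wild-type tumours 2 and 4 the Prg2 value was 3.29 (SE 0.72, adjusted p = 0.0452) and passed, as 1 of 8 genes, and that of Ccr3 was 3.32 (SE 1.15, adjusted p = 0.191). That Prg2 value carries no added weight, since leaving out the wild-type tumours highest in Prg2 was bound to raise it.

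Il13 had 0 counts in wild-type tumours against 20 in wild-type lesions. With a floor of 3 counts set for the tumours it was 12.2-fold lower, which takes the lesion counts as exact (exact lower limit 9.03). The value at that floor was 5.12-fold without wild-type lesion 2 and 20.5-fold without wild-type lesion 3. Without wild-type tumours 2 and 4 it was 7.75-fold. In sash mice Il13 had 4 counts in tumours against 20 in lesions, 12.8-fold lower (4.30 to 51.6), and 41.2-fold lower (6.59 to 1709) without sash tumour 4. In the fit without the filter on low counts both Il13 differences passed (adjusted p = 0.00580 in wild type and 0.0128 in sash), beside 32% of genes in wild-type and 42.4% in sash mice. Il4 was 2.97-fold lower by pooled counts in wild-type tumours than in wild-type lesions (1.14 to 8.27), or 2.52-fold (0.893 to 8.08) without wild-type tumours 2 and 4 and 1.83-fold (0.523 to 6.01) without wild-type lesion 1, and in sash mice its ratio was 1.66 (0.540 to 6.77).

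The other eosinophil genes did not all move with Prg2 and Ccr3. In wild-type tumours Siglecf fell by 2.51 (log2 difference −2.51, SE 0.53, adjusted p = 0.00266) while Il5ra had 169 counts against 30 in lesions, 3.08-fold higher by pooled counts (2.08 to 4.71) but not called (1.37, SE 0.75, adjusted p = 0.154). Adgre1 differed by 0.18 (SE 0.40, adjusted p = 0.762). In sash tumours, against sash lesions, Il5ra was called higher (log2 difference 3.87, SE 0.97, adjusted p = 0.00447), from very few counts in the lesions. Siglecf was called lower there (−1.86, SE 0.56, adjusted p = 0.0136), and Adgre1 was not called (0.24, SE 0.40, adjusted p = 0.640). Of 27 tested list genes, 5 were called higher and 4 lower in wild-type tumours, and 9 higher and 7 lower in sash tumours. Arg1, the arginase that type 2 cytokines and other signals induce in macrophages, was higher in tumours by 6.39 in wild type (SE 0.71, adjusted p = 1.83e-05) and 7.47 in sash (SE 0.75, adjusted p = 1.01e-05). Il33 was higher by 2.74 in wild type and 4.61 in sash, and Ccl2 by 2.59 in wild type and 2.48 in sash. Gata3, a transcription factor of T helper 2 cells and other cells, was higher by 2.14 in wild type and 1.35 in sash (adjusted p = 0.0286 in sash). Csf2 was higher by 2.17 in wild-type tumours (adjusted p = 0.0495) and by 4.55 in sash tumours. Csf2rb was higher by 1.64 in sash tumours and was not called in wild-type tumours (0.86, adjusted p = 0.0965). Ccl5, which binds CCR3 among other receptors, fell by 1.51 in wild-type tumours and fell by 2.49 in sash tumours. Ccl7, which can also bind CCR3, was called higher in sash tumours (3.02, SE 0.76, adjusted p = 0.00466) but not in wild-type tumours (1.87, adjusted p = 0.0513). Ccl11 was called in neither (−0.37 in wild type and 0.82 in sash). Il13ra2 was called higher in sash tumours (2.79, SE 0.72, adjusted p = 0.00540) but not in wild-type tumours (0.89, adjusted p = 0.303). The median over the list genes was 0.02 in wild type and 0.48 in sash, where all genes had a median of −0.0012 in wild type and 0.02 in sash.

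**Figure D4:**
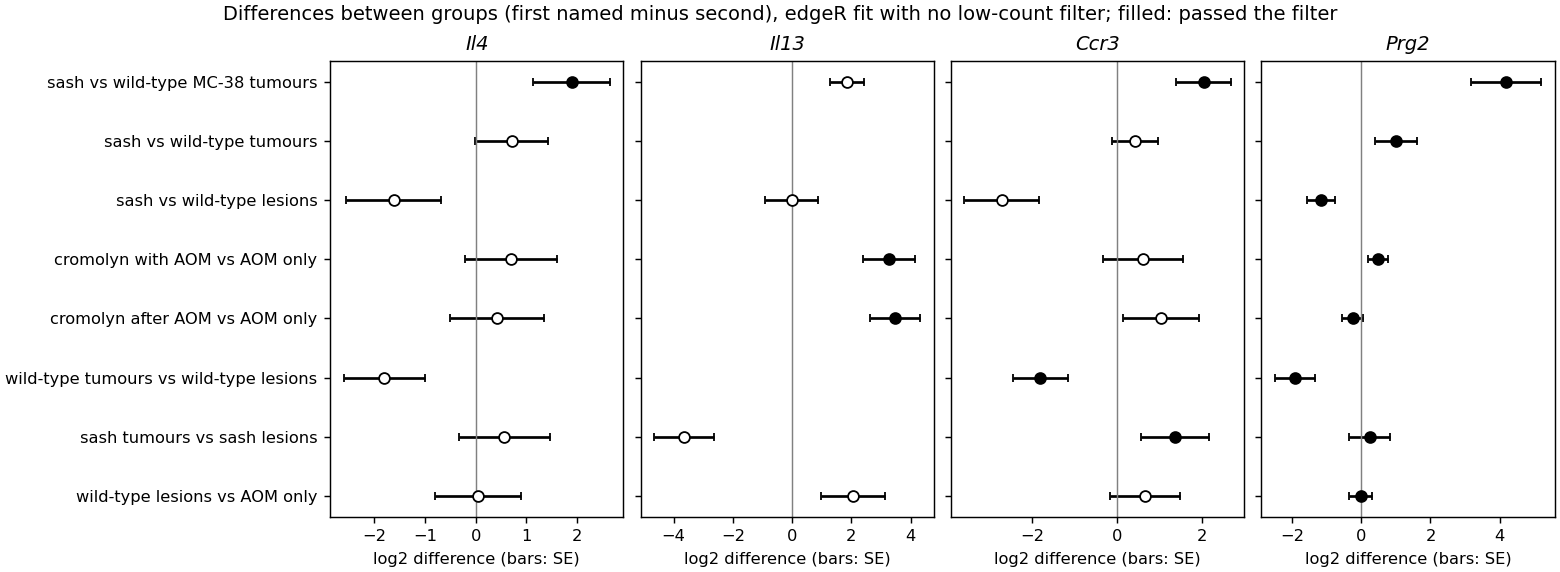
Log2 differences (points) with their SE (bars) from the edgeR fit without a filter on low counts, the first-named group minus the second, for each gene and comparison; filled points are genes that passed the filter. Il13 is left out where wild-type tumours, with 0 counts, are one of the groups. The MC-38 differences of all 4 genes lie above 0, and in lesions those of Il4, Ccr3 and Prg2 lie below 0.

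Il13 stood higher in both cromolyn groups than with AOM only, and it was called for cromolyn after AOM in the fit of all 9 libraries of the experiment. Il13 was at 48.4, 11.5 and 7.10 CPM for cromolyn with AOM and at 28.5, 26.7 and 22.8 CPM for cromolyn after AOM, against 0, 3.76 and 2.03 CPM for AOM only. Every library of either cromolyn group lay above every library of AOM only. For cromolyn after AOM, Il13 was higher, with a log2 difference of 3.49 (SE 0.88; edgeR adjusted p = 0.0427), a pooled ratio of 13.4 (4.26 to 67.6) from 40 against 3 counts. For cromolyn with AOM the difference was 3.28 (SE 0.91, adjusted p = 0.101) and the pooled ratio was 11.1 (3.45 to 56.5) from 31 against 3 counts. Without cromolyn with AOM replicate 1, which held 22 of the 31 counts, the ratio was 4.71 (1.18 to 27.1). Both comparisons share the AOM-only libraries. With at most 2 counts in an AOM-only library, Il13 passed the filter on low counts through the cromolyn libraries alone, where it is high, so its passing carries no weight of its own.

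The call for cromolyn after AOM was lost in all 6 fits that left out 1 library (adjusted p = 0.0888 to 0.155), with differences between 3.05 and 4.26. The AOM-only group had few Il13 counts beside the wild-type lesions, which carry the same labelled treatment and had 4, 14 and 2 counts (7.07, 21.2 and 1.88 CPM). The pooled ratio of wild-type lesions to AOM only was 4.08 (1.21 to 21.4), and 2 of 3 lesion libraries lay above every AOM-only library. That ratio was 1.71 (0.365 to 10.6) without wild-type lesion 2, which held 14 of the 20 counts, 6.86 without wild-type lesion 3 and 7.82 without AOM only 2, and its interval also included no difference without AOM only 1 (2.81, 0.832 to 14.7) or 3 (4.11, 0.999 to 36.3). Library totals were 616745 to 1149069 in the lesions and 470661 to 544886 with AOM only.

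Prg2 was at 85.8, 70.8 and 71.0 CPM for cromolyn with AOM and at 34.6, 55.2 and 47.6 CPM for cromolyn after AOM, against 60.7, 50.8 and 48.7 CPM for AOM only. The libraries of cromolyn with AOM lay above all others, with a difference to AOM only of 0.50 (SE 0.28, adjusted p = 0.389), and that of cromolyn after AOM was −0.23 (SE 0.29, adjusted p = 0.666). Cromolyn with AOM minus cromolyn after AOM was 0.73 for Prg2 (SE 0.28, adjusted p = 0.443) and −0.21 for Il13 (SE 0.59, adjusted p = 0.972). That timing comparison called 0 of 768 genes by edgeR (0%), of which 64 had an unadjusted p below 0.05, and 6 by DESeq2.

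Ccr3 had 16, 2 and 3 counts for cromolyn with AOM and 6, 4 and 22 counts for cromolyn after AOM, against 4, 1 and 9 counts for AOM only. The groups overlapped. The pooled ratio of cromolyn after AOM to AOM only was 2.29 (1.19 to 4.65), 1.09 (0.433 to 2.64) without its replicate 3, 1.58 (0.806 to 3.28) without AOM only 2 and 4.32 (1.67 to 14.2) without AOM only 3. That of cromolyn with AOM was 1.61 (0.779 to 3.41), 0.561 (0.158 to 1.65) without its replicate 1, 2.24 (1.07 to 4.84) without its replicate 2 and 3.02 (1.11 to 10.3) without AOM only 3. Il4 had 10, 3 and 0 counts for cromolyn with AOM and 2, 6 and 4 counts for cromolyn after AOM, against 4, 1 and 3 counts for AOM only. Both Il4 ratios, 1.74 (0.668 to 4.84) and 1.51 (0.566 to 4.25), had intervals that include no difference, and the first was 0.589 (0.101 to 2.46) without cromolyn with AOM replicate 1, which held 10 of the 13 counts.

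Of the members tested in the drug experiment, Il13 and Prg2, the number called was 0 for cromolyn with AOM, beside 0.26% of 768 genes, and 1 for cromolyn after AOM, beside 4.82%. Non-overlapping groups were found for 2 of the 4 members (Il13 and Prg2) for cromolyn with AOM, beside 22.1% of genes with a count, and for 1 (Il13) for cromolyn after AOM, beside 26.2%. Of the 21 list genes tested, 1 was called for cromolyn after AOM, Socs1, a STAT-induced inhibitor of cytokine signalling (1.53, SE 0.37, adjusted p = 0.0411). For cromolyn with AOM no list gene was called, and the smallest p-values were those of Ccl5 (1.02, SE 0.25, adjusted p = 0.0711) and Socs1 (1.43, SE 0.38, adjusted p = 0.0800). The list medians were 0.29 for cromolyn with AOM and 0.23 for cromolyn after AOM, against −0.03 and 0.01 for all genes in the same comparisons.

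Il13ra2 was at 50.6, 19.1 and 16.6 CPM for cromolyn with AOM and at 32.6, 22.9 and 32.4 CPM for cromolyn after AOM, against 18.7, 3.76 and 2.03 CPM for AOM only. The libraries of cromolyn after AOM lay above those of AOM only, with a log2 difference of 1.86 (SE 0.68, edgeR adjusted p = 0.144). For cromolyn with AOM the Il13ra2 difference was 1.85 (SE 0.68, adjusted p = 0.209), and neither was called. B cell markers summed to 387 to 1809 CPM for cromolyn with AOM and 273 to 1632 CPM for cromolyn after AOM, against 120 to 294 CPM for AOM only. T cell markers summed to 668 to 1239 CPM with cromolyn during AOM and 633 to 1099 CPM with cromolyn afterwards, against 581 to 766 CPM for AOM only. The epithelium list (2 of 9 names on the panel) summed to 21575 to 49851 CPM with cromolyn during AOM and 20265 to 37243 CPM with cromolyn afterwards, against 46870 to 61813 CPM for AOM only. The mast cell list summed to 464 to 678 CPM with cromolyn during AOM and 569 to 821 CPM with cromolyn afterwards, against 474 to 525 CPM for AOM only. For cromolyn after AOM the epithelium and mast cell sums did not overlap with AOM only, while the B cell and T cell sums did. None of the 3 tested mast cell genes was called there: Kit 0.60 (adjusted p = 0.153), Cpa3 0.55 (0.558) and Gata2 −0.51 (0.408). The mast cell list still summed to 168 to 192 CPM in sash lesions, so its sum is not read as an amount of mast cells. The part of these cells in the Il13 result was not tested.

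**Figure D5:**
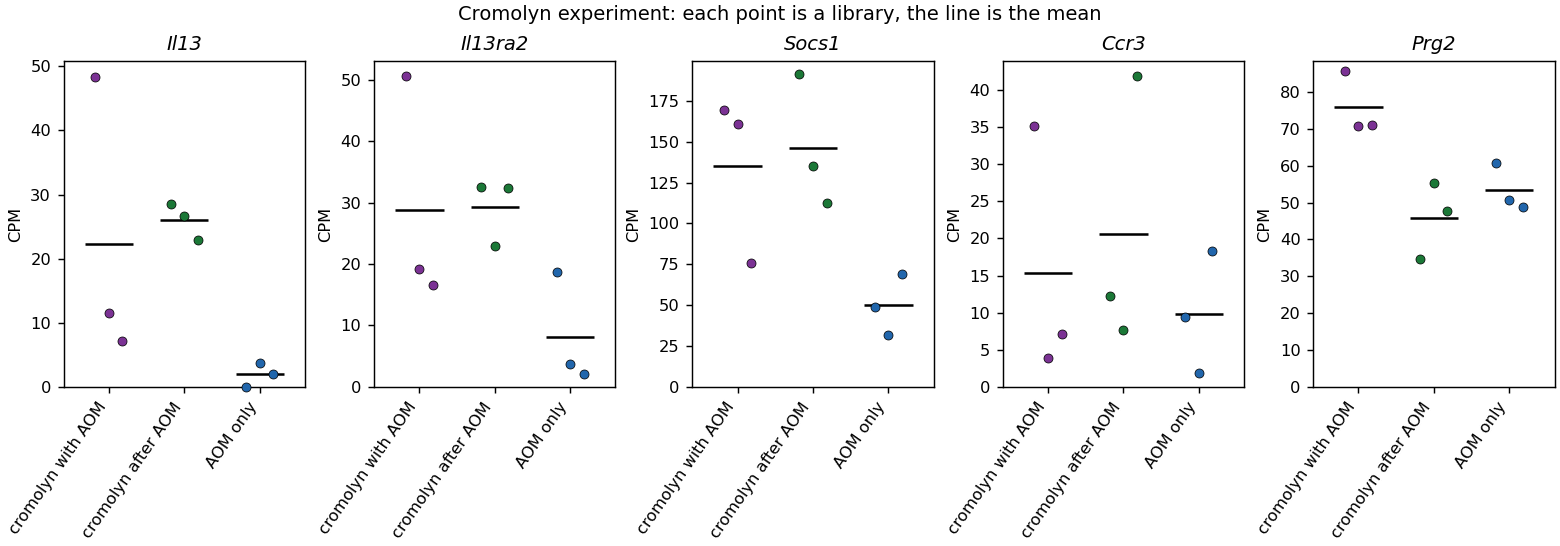
CPM of Il13, Il13ra2, Socs1, Ccr3 and Prg2 in each library of the drug experiment (points) with the group mean (line), each on its own axis from 0. All 6 cromolyn libraries lie above the 3 AOM-only libraries for Il13, at 7.10 CPM or more against at most 3.76 CPM.

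Wild-type lesions and AOM only, which share genotype, age and labelled treatment, differed in 119 of 762 genes (15.6%). Prg2 did not pass between them (log2 difference −0.0026, SE 0.32, adjusted p = 0.997), at 58.4, 65.1 and 42.4 CPM in wild-type lesions against 60.7, 50.8 and 48.7 CPM for AOM only. Ccr3 had 33 counts in wild-type lesions against 14 for AOM only, a ratio of 1.44 (0.751 to 2.92) that was 0.855 without wild-type lesion 2, 2.37 (1.21 to 4.85) without wild-type lesion 3 and 2.71 (1.05 to 8.90) without AOM only 3. Il4 had 13 counts in wild-type lesions against 8 for AOM only, a ratio of 0.994 (0.382 to 2.77) that was 0.611 without wild-type lesion 1. Of 21 tested list genes, Adgre1 (−1.16, SE 0.29, adjusted p = 0.0284) and Rora, a transcription factor of innate lymphoid cells and other cells (−1.04, SE 0.26, adjusted p = 0.0284), were called, both lower in the lesions. Siglecf had 94 against 23 counts, a ratio of 2.50 (1.57 to 4.13).

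How the genes varied from library to library within groups differed between the tables. Likeness was measured as Spearman's rho of log2(CPM + 0.5) after subtracting each group's mean, among genes with a mean of at least 5 counts. The libraries share depth and tissue makeup across genes, so these values are descriptions. Over the 9 MC-38 libraries, rho was 0.97 between Il4 and Prg2, 0.93 between Ccr3 and Prg2 and 0.90 between Il4 and Ccr3, while Il13 reached 0.43 to 0.53 with the other members. Ccl11 had a rho of 0.97 with Il4 and Prg2 and 0.95 with Ccr3, and Igkc, the immunoglobulin kappa constant region, 0.95 to 0.97 with these 3 genes, so high values were not limited to eosinophil genes.

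Among 752 genes, those most similar to Il4 included Mmp12, a macrophage elastase, and Serpina3n, a protease inhibitor (both 0.98). For Il13 they were Gzma, a granzyme of cytotoxic lymphocytes (0.83), Cd163, a macrophage receptor (0.80), and Ptafr, the receptor for platelet-activating factor (0.80). For Ccr3 they were Cd1d1, a lipid antigen-presenting molecule, Cd248, a stromal surface protein, and Cd36, a scavenger receptor (all 0.98, with 5 genes tied). For Prg2 they were Cd84, a leukocyte surface receptor, Epor, the erythropoietin receptor, and Mmp12 (all 0.98, with 5 genes tied).

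Over the 25 AOM libraries, Ccr3 and Prg2 had a rho of 0.17 with each other. Among 845 genes, Prg2 varied most like Tsc22d3, a glucocorticoid-induced gene (0.79), Igkc (0.76) and Irf4 (0.70), and its rho with Siglecf was 0.15. Ccr3 varied most like Lck, the T cell kinase (0.75), Cd80, a costimulatory ligand of antigen-presenting cells (0.71), and Dtnb, a dystrobrevin (0.69), and its rho with Siglecf was 0.50. Il4 (mean 3.0 counts) and Il13 (mean 4.72 counts) were under the minimum. Prg2 had a rho of 0.01 with Il5ra and 0.32 with Ccl11, so its colon values are given as those of the gene and are not read as an amount of eosinophils. Igkc itself averaged 35487 CPM in sash lesions and 60212 CPM in wild-type lesions, while the drug experiment had 80622 CPM with cromolyn during AOM and 61976 CPM with cromolyn afterwards, against 106764 CPM for AOM only. Its part in the Prg2 values was not tested.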

How the data were processed

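Targeted panel libraries of 34 mouse samples were analysed in 9 groups set by the labels. Both deposited tables hold raw counts that the authors had not normalised. The submitters' processing notes name mm9 and DESeq2 with no version. The aligner and counter, and any use of molecular tags, are not stated in the labels, so intervals and floors cover counting error only. The 5 control entries, at 0 in every library, were left out. Replicates of a group differed by a chi-square per degree of freedom of 5.85 to 194, so none was merged.

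Tests ran across all panel genes by quasi-likelihood in edgeR 4.0.16 and R 4.3.3 (TMM scaling, filterByExpr with a minimum count of 10 and total of 15, robust), with Benjamini-Hochberg adjustment over all genes of a comparison and calls at an adjusted p below 0.05. Genotypes were fitted pair by pair, the 3 drug groups together, the 4 tumour and lesion groups together for stages and the interaction, and wild-type lesions with AOM only as a pair. Pooled ratios are summed counts over summed library totals with exact 95% conditional binomial intervals. Alternatives were DESeq2 1.42.0, RLE factors, library totals, scaling to 9 genes (added after seeing the data), no low-count filter, all 25 AOM libraries in 1 fit, the replicate block, and leaving out each library or wild-type tumours 2 and 4 (for stages and the interaction added after seeing the data). The code was tested on simulated counts. The named genes are the 4 members, their ligands and receptors on the panel, list genes that were called (at most 6 of smallest p per comparison, or the 2 of smallest p where none was called), markers beside a result, and the 3 genes most like each member, of which 1 is not reported here. The members and lists were chosen with earlier results of these data known.

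The labels give groups the same replicate numbers. A fit with the replicate block used only the 2 groups compared and the replicate numbers found in both. It therefore left out tumours 4 and 5 for the stages. In MC-38 tumours it left out sash replicates 2 and 6 and wild-type replicate 3. Deviations of same-numbered libraries correlated above 0.1 in all pairs of the lesion comparison alone (r = 0.39, 0.16 and 0.52), so the blocked value is given there. This pairing comes from the data, not the labels.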

Additional observations from a re-analysis of the deposited data

Results flagged for a closer look

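Prg2 in sash tumour 5 stood far from the other sash tumours, at 64.1 CPM against a next highest value of 27.3 CPM. The gap was 0.788 of the group's range, above the 95% critical value of 0.71 for 5 samples. Of 15 groups of values tested in this way, chance flags about 1 in 20. Without that library the pooled ratio of sash to wild-type tumours for Prg2 was 1.57, against 2.14 with it, and the log2 difference between sash tumours and sash lesions was −0.25 against 0.26 with it.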

How the results depend on the processing

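The 4 genes gave 18 tested results and 265 alternative values. Of these, 233 kept their direction and their side of the threshold, 17 lost a call, 6 gained one and 9 changed sign, none of them a called result. The cause of these changes was not tested. For cromolyn after AOM against AOM only, Il13 was called at 3.49 and not called at 3.41 with the added gene scaling (adjusted p = 0.0512) or 3.56 with all 25 AOM libraries in the fit (0.320), and leaving out 1 library gave 3.05 to 4.26 with no call. For cromolyn with AOM, DESeq2 called Il13 at 3.46 (0.0457). In MC-38 tumours DESeq2 called Ccr3 at 2.04 and Prg2 at 4.24, and leaving out 1 library gave 1.65 to 2.42 for Ccr3 and 3.82 to 4.69 for Prg2, both called without sash replicate 4 (2.30 and 4.47). Prg2 failed the low-count filter with the replicate block and without sash replicate 1, 2, 5 or 6, so these MC-38 alternatives have no Prg2 value. Between wild-type tumours and lesions, Ccr3 was not called with library totals (−1.63) or all 25 libraries (−1.80), and leaving out 1 library gave −2.33 to −1.12, with no call without lesion 1 or 2 or tumour 1 or 5. Prg2 there was not called with the replicate block (−2.12, 0.0524), which also left out wild-type tumours 4 and 5. Leaving out 1 library gave −2.55 to −1.71 for Prg2, with no call without lesion 1 or 2. Without wild-type tumours 2 and 4, an alternative chosen after seeing the data for this comparison, the Prg2 interaction was called at 3.29 (0.0452). These wild-type tumours had the highest Prg2, so the direction of that change was fixed in advance.

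Sign changes among results that were not called were as follows. Prg2 between sash tumours and lesions was −0.19 with the replicate block and −0.25 without sash tumour 5. The block fit also left out sash tumours 4 and 5, so these 2 values are not separate. Leaving out 1 library gave −0.25 to 0.40. Prg2 between wild-type lesions and AOM only was 0.026 with DESeq2, 0.027 with RLE factors, 0.0017 with all 25 libraries, 0.11 without AOM only 1 and 0.17 without lesion 3, and leaving out 1 library gave −0.13 to 0.17. Il13 for cromolyn with against after AOM was 0.12 and 0.20 without cromolyn with AOM 2 and 3, and leaving out 1 library gave −1.42 to 0.20. Genes called overall ranged, across alternatives, from 0 to 88 for tumours (81 with DESeq2, 88 with all 25 libraries), 0 to 84 for lesions (84 with the replicate block, and 0 without sash lesion 2), 0 to 47 for cromolyn with AOM, 0 to 56 for cromolyn after AOM, 0 to 6 for the timing of cromolyn, 3 to 48 for MC-38, 180 to 410 and 298 to 462 for the wild-type and sash stages, 0 to 19 for the interaction and 11 to 268 for wild-type lesions against AOM only. Outside the lesions, same-numbered libraries did not all correlate above 0.1. In MC-38 tumours the replicate block, fitted on replicates 1, 4 and 5 alone, gave 1.10 for Il4 and 1.07 for Ccr3 and changed no call. With library totals, the all-gene median moved by 0.21 and 0.18 for the wild-type and sash stages and 0.11 for cromolyn after AOM, and the added scaling by −0.24 for lesions, 0.16 for the sash stage and 0.19 for the interaction. The planned scaling to reference genes was not run, since 0 of its 9 genes are on the panel. Counts of Il4 and Il13, at most 22 in an AOM library, limit what could be detected there.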
